A study of Saccharomyces cerevisiae with 4 samples.

Results

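The 35 aminoacyl-tRNA synthetase genes of budding yeast, Saccharomyces cerevisiae, were followed through rapamycin treatment in a ptc1 strain and in a wild-type strain. They were chosen by systematic name from a list of 21 genes for cytosolic enzymes and 14 genes for mitochondrial enzymes. Of the cytosolic genes, 5 were listed as also serving the mitochondria. All 35 were found among the 6176 genes of the table, each in 1 row. The ptc1 strain lacks the protein phosphatase Ptc1. The sources used here do not give the genetic background of either strain. Both strains grew in YPD rich medium at 28 °C to an absorbance of 0.5 at 660 nm and then received rapamycin at 200 ng/ml for 1 h, or the vehicle of ethanol and Tween-20 as mock treatment. There were 4 spotted 2-colour arrays, 2 for ptc1 and 2 for the wild type, each setting rapamycin-treated cells against mock-treated cells within a strain. The arrays of a strain were a dye swap of its RNA, taken as 1 biological sample, so the ± of a mean is the SD of 2 arrays and covers technical spread alone. No test across cultures was possible, and no p-value is given.

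Aminoacyl-tRNA synthetases load each tRNA with its amino acid and so supply the ribosome. The enzymes fall into unrelated class I and class II folds. Yeast cells run this step in the cytosol and again in mitochondria, where most enzymes come from separate nuclear genes, while a few nuclear genes make both forms of the enzyme. Rapamycin inhibits TORC1, the kinase complex that promotes ribosome production and translation when nutrients are plentiful.

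Values are ratios on a log scale, taken as log2 and read as rapamycin over mock. The sources used here give neither the base nor the direction with the values, so the direction is likely rather than settled. It rests on the study's design, which sets treated cells against mock-treated cells. The words rose and fell are kept for genes whose mean in a strain was 1 or more in size on the log2 scale (2-fold) and whose arrays in that strain shared a sign. Between 4985 and 5389 genes had a value on an array, and the arrays correlated with Pearson's r from 0.869 to 0.958 across 4650 genes, which are not independent replicates. The number of arrays limits the precision. PTC1 itself had no value on either ptc1 array and stood at 0.00 and −0.53 on the wild-type arrays. Of the synthetase genes, 34 were measured on both ptc1 arrays, 31 on both wild-type arrays and 30 on all 4.

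Genes for the cytosolic synthetases had lower ratios after rapamycin in both strains, by about as much as the 2-fold limit. In ptc1, 14 of 21 fell, where 12.4% of all 5221 measured genes fell. Wild-type cells had 9 of 19 fallen, against 15.0% of 4796 genes. The median log2 ratio of the cytosolic set was −1.27 in ptc1 (−0.97 on array 1 and −1.39 on array 2) and −0.97 in the wild type, while that of all genes was 0.08 in ptc1 and 0.07 in the wild type. None of the set rose in either strain. Many genes lay near the limit: with a 1.5-fold limit 18 of 21 fell in ptc1 (20.3% of all genes) and 13 of 19 in the wild type (23.7%), and with a 3-fold limit 2 fell in ptc1 (7.07% of all genes) and 4 in the wild type (9.07%). In ptc1 20 of 21 were negative on both arrays, and in the wild type 17 of 19 were. Of all genes, 1825 of 5221 were negative on both arrays in ptc1 and 1943 of 4796 in the wild type.

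**Figure D1:**
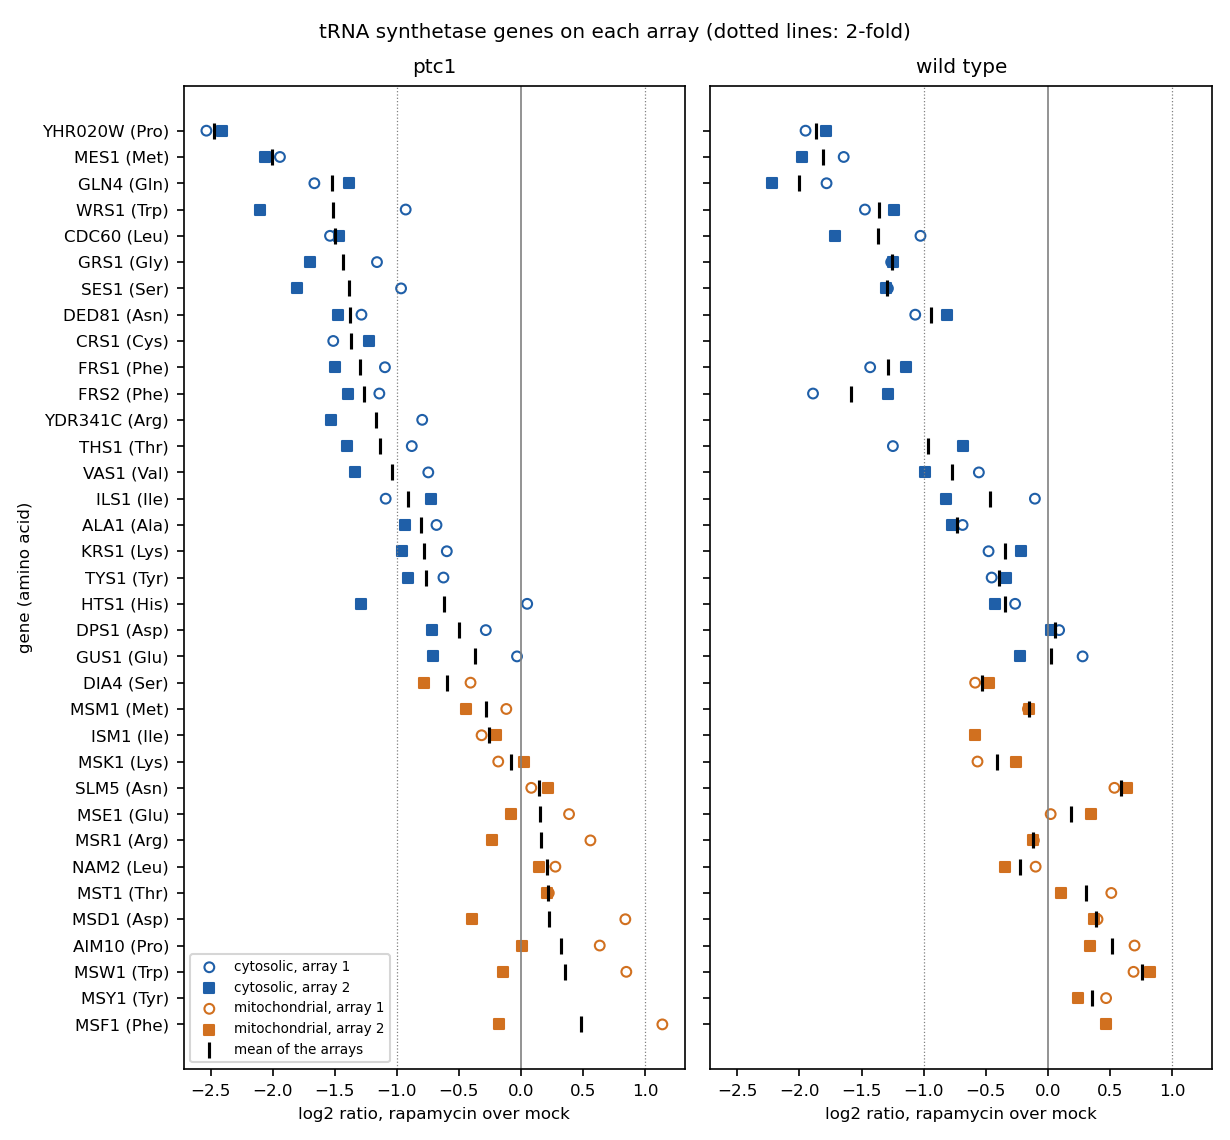
Log2 ratio (rapamycin over mock, horizontal axis) of each synthetase gene (vertical axis) on array 1 (open circles) and array 2 (filled squares) of ptc1 (left) and the wild type (right), with the mean of the arrays as a black bar and 2-fold as dotted lines. Cytosolic genes (blue) lie mostly between −2.5 and 0 and mitochondrial genes (orange) on both sides of 0.

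Among the cytosolic genes measured in both strains, 9 fell in both, 3 fell in ptc1 and missed the limit in the wild type, and 7 fell in neither. No gene fell in the wild type alone. Of all 4650 genes measured on all arrays, 12.5% fell in ptc1 and 15.0% in the wild type. The share of all genes that fell in both strains or in a single strain is not given here. This split is therefore not read as a result about the members. The genes that fell in both strains were YHR020W, MES1, GLN4, WRS1, CDC60, GRS1, SES1, FRS1 and FRS2.

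YHR020W, which encodes the cytosolic prolyl-tRNA synthetase, had the lowest ratio of all synthetase genes in ptc1. It stood at −2.53 and −2.41 on the ptc1 arrays, against −1.95 and −1.79 on the wild-type arrays. The means were −2.47 ± 0.09 in ptc1, 5.54-fold lower than mock, and −1.87 ± 0.11 in the wild type, 3.66-fold lower. Every ptc1 array lay below every wild-type array.

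MES1 (YGR264C), the gene of methionyl-tRNA synthetase, which charges initiator and elongator tRNAs alike, was next. Its log2 ratios were −1.94 and −2.06 on the ptc1 arrays, against −1.64 and −1.98 on the wild-type arrays. The means of −2.00 ± 0.09 in ptc1 and −1.81 ± 0.24 in the wild type differed by less than the spread of the arrays, and the strains overlapped.

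GLN4 (YOR168W), for glutaminyl-tRNA synthetase, had the lowest mean of the family in the wild type. It read −1.66 and −1.39 on the ptc1 arrays and −1.78 and −2.22 on the wild-type arrays. The means were −1.52 ± 0.20 in ptc1, 2.88-fold lower than mock, and −2.00 ± 0.31 in the wild type, 4.01-fold lower. Both wild-type values were below both ptc1 values, the opposite order to YHR020W.

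The 6 other genes that fell in both strains had means from −1.52 to −1.27 in ptc1 and from −1.59 to −1.26 in the wild type. WRS1 (YOL097C, tryptophanyl) read −0.93 and −2.11 on the ptc1 arrays and −1.47 and −1.24 on the wild-type arrays. CDC60 (YPL160W, leucyl), first known as a cell division cycle gene, read −1.54 and −1.46 in ptc1 and −1.03 and −1.72 in the wild type. The ptc1 arrays of WRS1 and the wild-type arrays of CDC60 differed by more than the strain means did. SES1 (YDR023W, seryl) had −0.97 and −1.81 on the ptc1 arrays, against −1.29 and −1.31 on the wild-type arrays. GRS1 (YBR121C, glycyl) had −1.16 and −1.70 in ptc1 and −1.26 and −1.25 in the wild type. For SES1 and GRS1 the wild-type arrays lay close together and inside the range of the ptc1 arrays.

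FRS1 (YLR060W) and FRS2 (YFL022C) encode the subunits of cytosolic phenylalanyl-tRNA synthetase, which works as a tetramer of both. In ptc1 the subunit genes had nearly the same mean, −1.30 ± 0.29 for FRS1 and −1.27 ± 0.18 for FRS2. In the wild type FRS1 stood at −1.29 ± 0.21 and FRS2 at −1.59 ± 0.43. FRS2 read −1.14 and −1.39 on the ptc1 arrays and −1.89 and −1.29 on the wild-type arrays, so the strains overlapped.

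DED81 (YHR019C, asparaginyl), THS1 (YIL078W, threonyl) and VAS1 (YGR094W, valyl) fell in ptc1 and were close to the limit in the wild type. DED81 read −1.29 and −1.47 on the ptc1 arrays, against −1.07 and −0.81 on the wild-type arrays, with means of −1.38 ± 0.13 in ptc1 and −0.94 ± 0.18 in the wild type. Its strains did not overlap. THS1 averaged −1.14 ± 0.37 in ptc1 and −0.97 ± 0.40 in the wild type. VAS1 averaged −1.04 ± 0.42 in ptc1 and −0.77 ± 0.31 in the wild type. For these 3 genes the side of the limit on which a strain lay rested on differences between strains of 0.44 or less on the log2 scale. DED81 and YHR020W are next to each other on their chromosome, the only members of the family that are neighbours, and their systematic names place them on opposite strands.

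A further 7 cytosolic genes fell in neither strain. ALA1 (YOR335C, alanyl) stood at −0.81 ± 0.18 in ptc1 and −0.73 ± 0.06 in the wild type, and ILS1 (YBL076C, isoleucyl) at −0.91 ± 0.26 in ptc1 and −0.46 ± 0.51 in the wild type. KRS1 (YDR037W, lysyl) averaged −0.78 ± 0.26 in ptc1 and −0.35 ± 0.18 in the wild type, and TYS1 (YGR185C, tyrosyl) −0.77 ± 0.20 in ptc1 and −0.40 ± 0.08 in the wild type. All 4 genes were negative on every array. HTS1 (YPR033C, histidyl) read 0.05 and −1.29 on the ptc1 arrays, the widest gap of any synthetase gene, and −0.26 and −0.43 on the wild-type arrays.

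DPS1 (YLL018C, aspartyl) and GUS1 (YGL245W, glutamyl) had the highest ratios of the cytosolic set. DPS1 read −0.28 and −0.72 on the ptc1 arrays and 0.09 and 0.02 on the wild-type arrays, with means of −0.50 ± 0.31 in ptc1 and 0.06 ± 0.05 in the wild type. GUS1 read −0.03 and −0.71 on the ptc1 arrays and 0.28 and −0.23 on the wild-type arrays, with means of −0.37 ± 0.48 in ptc1 and 0.03 ± 0.36 in the wild type. In the wild type both means lay within 0.1 of 0. CRS1 (YNL247W, cysteinyl) and YDR341C (arginyl) had values in ptc1 alone. Both fell there, CRS1 with −1.51 and −1.23 on the arrays and YDR341C with −0.80 and −1.53.

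The cytosolic genes were also compared by enzyme class and by service in mitochondria. Of all measured genes, 12.4% fell in ptc1 and 15.0% in the wild type. Of class I genes 7 of 10 fell in ptc1 and 4 of 8 in the wild type, with medians of −1.27 in ptc1 and −1.06 in the wild type. Of class II genes 7 of 11 fell in ptc1 and 5 of 11 in the wild type, with medians of −1.27 in ptc1 and −0.97 in the wild type. The 5 genes listed as also serving mitochondria were ALA1, GRS1, HTS1, VAS1 and CRS1. Of these, 3 of 5 fell in ptc1 and 1 of 4 in the wild type. Their medians were −1.04 in ptc1 and −0.75 in the wild type. The whole cytosolic set had lower medians, −1.27 in ptc1 and −0.97 in the wild type, with 14 of 21 and 9 of 19 fallen. The ranges of single genes overlapped between the groups throughout, and no test of the groups was possible.

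Genes for the mitochondrial synthetases stayed near 0. Of 13 measured in ptc1 and 12 in the wild type, 0 fell and 0 rose. Of all genes, 12.4% fell and 10.6% rose in ptc1, and 15.0% fell and 13.8% rose in the wild type. The sets are small, and the counts were not tested against these shares. With a 1.5-fold limit DIA4 fell in ptc1 (20.3% of all genes fell) and 0 genes rose there (22.2% rose). MSW1 and SLM5 rose in the wild type at that limit (26.4%). The median was 0.16 in ptc1 and 0.25 in the wild type, and without ptc1 array 1 the ptc1 median was −0.15. Means ran from −0.59 to 0.48 in ptc1 and from −0.53 to 0.75 in the wild type. Each gene measured in the wild type had the same sign on both arrays, 7 positive and 5 negative. In ptc1 4 were positive on both arrays, 3 were negative on both and 6 had opposite signs. Of all 5221 genes in ptc1, 2120 were positive on both arrays, 1825 were negative on both and 1276 did not share a sign. Of all 4796 genes in the wild type, 2247 were positive on both arrays, 1943 were negative on both and 606 did not share a sign. The sign counts were not tested against these.

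The highest wild-type mean among them belonged to MSW1 (YDR268W), for tryptophan, at 0.75 ± 0.09. It read 0.85 and −0.15 on the ptc1 arrays, against 0.69 and 0.82 on the wild-type arrays. SLM5 (YCR024C), for asparagine, read 0.08 and 0.21 on the ptc1 arrays and 0.54 and 0.64 on the wild-type arrays, and its strains did not overlap. AIM10 (YER087W), which encodes a protein similar to prolyl-tRNA synthetases, read 0.63 and 0.01 in ptc1 and 0.70 and 0.34 in the wild type. MSW1 and AIM10 thus varied more between the ptc1 arrays than between the wild-type arrays.

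DIA4 (YHR011W), for serine, had the lowest mean in both strains, at −0.59 ± 0.26 in ptc1 and −0.53 ± 0.08 in the wild type, and it was negative on all 4 arrays. MSM1 (YGR171C), for methionine, was also negative on all 4 arrays, with means of −0.28 ± 0.23 in ptc1 and −0.16 ± 0.01 in the wild type. MSK1 (YNL073W), for lysine, read −0.18 and 0.02 on the ptc1 arrays and −0.57 and −0.26 on the wild-type arrays. NAM2 (YLR382C), the mitochondrial leucyl-tRNA synthetase that also takes part in the splicing of mitochondrial introns, read 0.28 and 0.15 on the ptc1 arrays and −0.10 and −0.35 on the wild-type arrays. For MSK1 and NAM2 every ptc1 value lay above every wild-type value.

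MST1 (YKL194C, threonine) was positive on all 4 arrays, with means of 0.22 ± 0.01 in ptc1 and 0.31 ± 0.29 in the wild type. MSD1 (YPL104W, aspartate) read 0.84 and −0.40 on the ptc1 arrays, against 0.40 and 0.37 on the wild-type arrays. MSE1 (YOL033W, glutamate) averaged 0.15 ± 0.33 in ptc1 and 0.19 ± 0.23 in the wild type, and MSR1 (YHR091C, arginine) 0.16 ± 0.56 in ptc1 and −0.12 ± 0.01 in the wild type. None of these 4 separated the strains. MSF1 (YPR047W, phenylalanine) read 1.14 and −0.18 on the ptc1 arrays and 0.46 on wild-type array 2, and ISM1 (YPL040C, isoleucine) read −0.32 and −0.20 in ptc1 and −0.59 on wild-type array 2. Neither had a value on wild-type array 1. MSY1 (YPL097W, tyrosine) had values in the wild type alone, 0.47 and 0.24.

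Comparing enzymes for the same amino acid sets the cytosolic gene against its mitochondrial counterpart on the same array, so that centring of the array cancels. There were 14 such amino acids, of which 13 could be compared on both ptc1 arrays and 11 on both wild-type arrays. For phenylalanine the mean of FRS1 and FRS2 was used. In ptc1 the cytosolic gene had the lower ratio on both arrays for 13 of 13 amino acids, by at least 2-fold on average for 8. In the wild type it was lower on both arrays for 9 of 11 and by at least 2-fold for 6. The median difference, cytosolic minus mitochondrial, was −1.35 in ptc1 and −1.15 in the wild type. Single wild-type arrays gave −0.93 (array 1) and −0.83 (array 2).

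**Figure D2:**
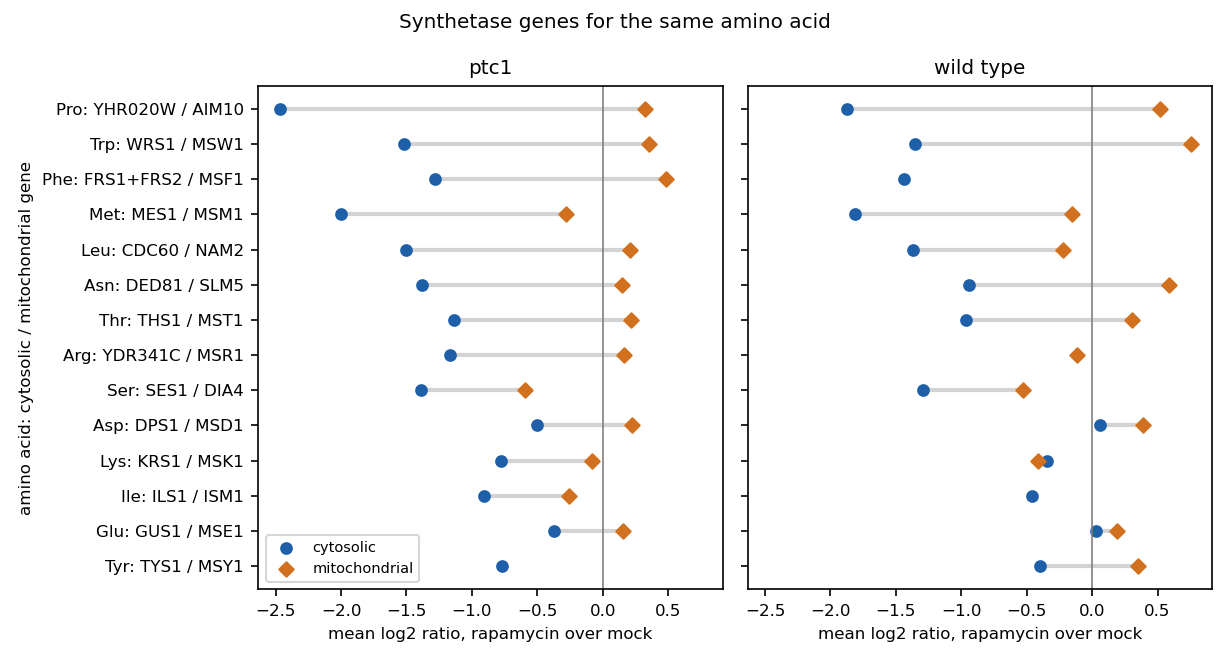
Mean log2 ratio (rapamycin over mock, horizontal axis) of the cytosolic (blue circle) and mitochondrial (orange diamond) synthetase gene for each amino acid (vertical axis) in ptc1 (left) and the wild type (right), with a grey line where both were measured on both arrays. The grey lines run from a lower cytosolic to a higher mitochondrial value in all 13 ptc1 pairs and in 10 of the 11 wild-type pairs, the exception being lysine.

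Proline showed the widest gap. YHR020W minus AIM10 was −3.17 and −2.42 on the ptc1 arrays and −2.65 and −2.13 on the wild-type arrays. Tryptophan followed, with a mean difference of WRS1 minus MSW1 of −1.87 ± 0.13 in ptc1 and −2.11 ± 0.07 in the wild type. Methionine (MES1 minus MSM1) gave −1.72 ± 0.15 in ptc1 and −1.66 ± 0.25 in the wild type. Both gaps were present on every array, and the tryptophan gap kept a small spread although WRS1 and MSW1 each varied widely between the ptc1 arrays.

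Asparagine gave the same mean difference in both strains, −1.53 ± 0.22 in ptc1 and −1.53 ± 0.11 in the wild type, as DED81 and SLM5 were each lower by 0.44 in ptc1. Leucine (CDC60 minus NAM2) gave −1.71 ± 0.14 in ptc1 and −1.15 ± 0.31 in the wild type, and threonine (THS1 minus MST1) −1.35 ± 0.36 in ptc1 and −1.27 ± 0.69 in the wild type. These 3 passed the 2-fold limit in both strains. Phenylalanine (−1.76 ± 0.70) and arginine (−1.33 ± 0.04) passed it in ptc1. In the wild type phenylalanine could be compared on array 2 alone, where it gave −1.68, and arginine on neither array.

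The gap was smaller for serine, aspartate, glutamate, lysine, isoleucine and tyrosine. Serine gave −0.79 ± 0.33 in ptc1 and −0.77 ± 0.09 in the wild type, where both SES1 and DIA4 were negative. Lysine (KRS1 minus MSK1) gave −0.70 ± 0.40 in ptc1 and 0.06 ± 0.04 in the wild type, the one mean above 0. Glutamate (GUS1 minus MSE1) gave −0.53 ± 0.15 in ptc1 and −0.16 ± 0.59 in the wild type, with opposite signs on the wild-type arrays. Aspartate (DPS1 minus MSD1) gave −0.72 ± 0.56 in ptc1 and −0.33 ± 0.03 in the wild type. These small gaps held the genes DPS1 and GUS1, whose own ratios were nearest 0 among the cytosolic genes. Isoleucine (ILS1 minus ISM1) gave −0.65 ± 0.17 in ptc1 and −0.23 on wild-type array 2, the only wild-type array with both genes. Tyrosine (TYS1 minus MSY1) gave −0.75 ± 0.24 in the wild type and had no value in ptc1.

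No synthetase gene differed between the strains by 2-fold. The rule for this asked that the ptc1 mean lie at least 1 above or below the wild-type mean and that no ptc1 array overlap a wild-type one. It held for 0 of the 30 genes measured on all arrays and for 1.91% of all 4650 genes. The strain means correlated with Pearson's r = 0.904 across the 19 cytosolic genes and r = 0.755 across the 11 mitochondrial genes, against r = 0.960 across all 4650 genes. Between the ptc1 arrays, r was 0.713 for the cytosolic, 0.217 for the mitochondrial and 0.869 for all 4650 genes. Between the wild-type arrays, it was 0.827, 0.855 and 0.958 in the same order. The mitochondrial values thus reproduced poorly in ptc1, which limits the strain correlation of that set. These values are descriptions, and the genes of a set share their arrays.

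For 9 of the 30 genes the ptc1 and wild-type arrays did not overlap, whatever the size of the gap, which also held for 34.7% of all genes. Of these 6 were lower in ptc1 (16.5% of all genes) and 3 higher (18.2%). The share among synthetases was thus close to the background. YHR020W (a difference of −0.60 ± 0.14), DPS1 (−0.56 ± 0.31), SLM5 (−0.44 ± 0.12), DED81 (−0.44 ± 0.22), KRS1 (−0.43 ± 0.31) and TYS1 (−0.37 ± 0.22) were lower in ptc1, where the ± combines the SDs of both strains. GLN4 (0.48 ± 0.37), NAM2 (0.43 ± 0.20) and MSK1 (0.33 ± 0.26) were higher. ILS1 also belonged to the 5 largest differences (−0.45 ± 0.57), but its strains overlapped.

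**Figure D3:**
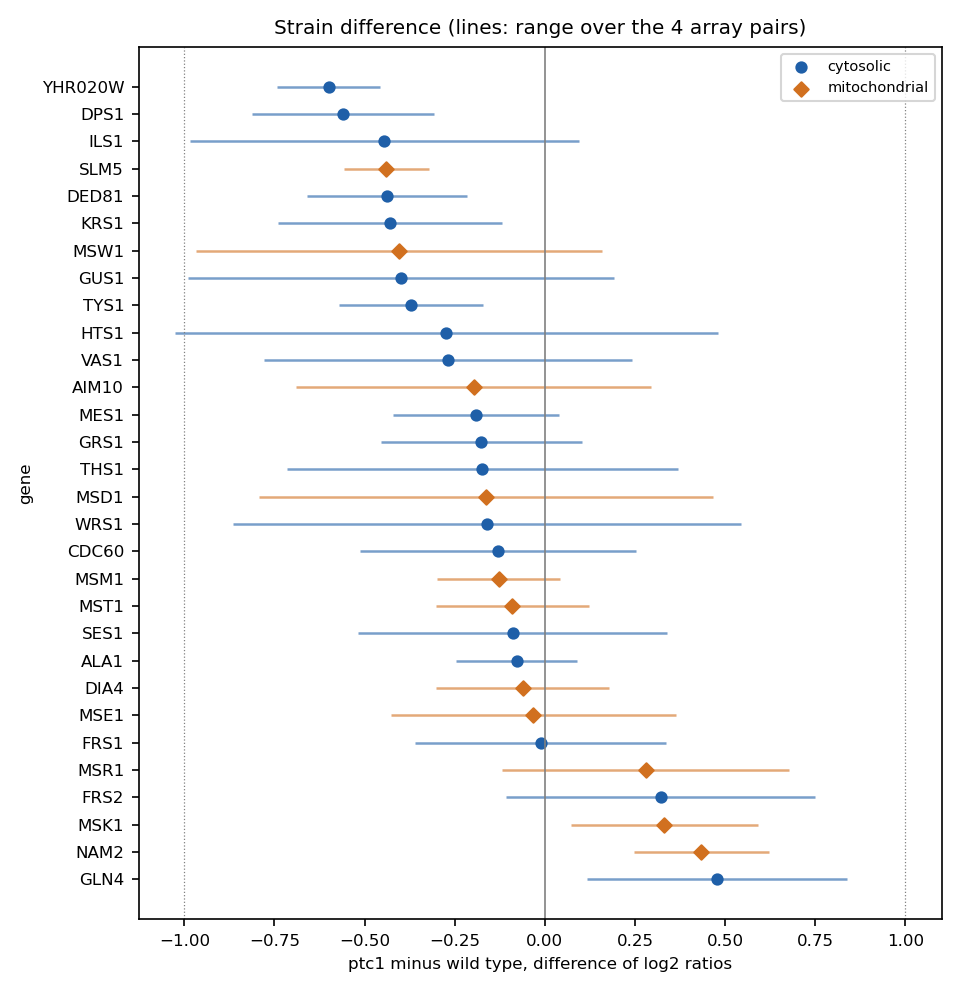
Difference of the mean log2 ratio between strains, ptc1 minus wild type (horizontal axis), for the 30 synthetase genes measured on all 4 arrays (vertical axis), with lines over the range of the 4 pairings of 1 array from each strain and dotted lines at 2-fold. All means lie between −0.60 and 0.48, and the lines of 21 genes cross 0.

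The cytosolic genes had mostly lower ratios in ptc1, with 17 of 19 differences negative and a median of −0.19, against 2345 of 4650 negative and a median of −0.0035 for all genes. That direction rested on ptc1 array 2. Against wild-type arrays 1 and 2, the median difference was −0.12 and 0.09 with ptc1 array 1, and −0.46 and −0.49 with ptc1 array 2. Within ptc1, 26 of 34 synthetase genes had the lower value on array 2, with a median difference of −0.37, whereas the median difference over all genes was 0.04. In the wild type 16 of 31 had the lower value on array 2, with a median of −0.01. The part of this array difference in the strain difference was not tested. Since mock-treated cells of its own strain stand below each ratio, a change in treated cells and one in mock-treated cells cannot be told apart.

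Genes that work beside the synthetases were read for comparison, from lists written from general knowledge. ARC1 (YGL105W) encodes the cofactor that binds the glutamyl and methionyl enzymes and brings them tRNA. It read −0.87 and −0.20 on the ptc1 arrays and −0.47 and −0.48 on the wild-type arrays, and did not fall in either strain. MES1 had the lowest ratio of the 3 genes of this complex on every array, while ARC1 and GUS1 changed order between the ptc1 arrays. GRS2 (YPR081C), a paralogue of GRS1, had positive ratios of 0.87 and 0.95 in ptc1 and 1.12 and 0.86 in the wild type, with means of 0.91 ± 0.06 in ptc1 and 0.99 ± 0.18 in the wild type, just short of 2-fold. Signal shared between GRS1 and GRS2 was not examined, and their values had opposite signs on every array.

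Mitochondria have no glutaminyl-tRNA synthetase of their own in yeast and convert glutamate on the tRNA with an amidotransferase of 3 subunits, encoded by HER2 (YMR293C), PET112 (YBL080C) and GTF1 (YGR102C). GTF1 fell in both strains, with −2.49 and −1.90 on the ptc1 arrays and −3.01 and −2.89 on the wild-type arrays. The means were −2.20 ± 0.42 in ptc1 and −2.95 ± 0.09 in the wild type. The other subunit genes did not follow it. HER2 read 0.22 and 0.50 in ptc1 and −0.22 and −0.65 in the wild type, and PET112 0.34 and 0.53 in ptc1 and −0.28 and −0.47 in the wild type. FMT1 (YBL013W), which formylates the mitochondrial initiator tRNA, averaged 0.34 ± 0.41 in ptc1 and had no value in the wild type.

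Genes of tRNA processing and modification fell in 27 of 59 cases in ptc1 (12.4% of all genes) and 23 of 50 in the wild type (15.0% of all genes), with medians of −0.86 in ptc1 and −0.91 in the wild type. KRE33, which acetylates tRNA and rRNA, averaged −3.11 ± 0.12 in ptc1 and −3.71 ± 0.43 in the wild type. TRM8, a subunit of the tRNA guanosine methyltransferase, averaged −2.53 ± 0.36 in ptc1 and −2.83 ± 0.21 in the wild type. THG1, which adds guanosine to histidine tRNA, was the 1 gene of this list that rose in the wild type, with a mean of 1.03. The means of this list thus covered a wider range than those of the cytosolic synthetases. The list is also longer, with 59 genes measured in ptc1 against 21 cytosolic synthetases.

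**Figure D4:**
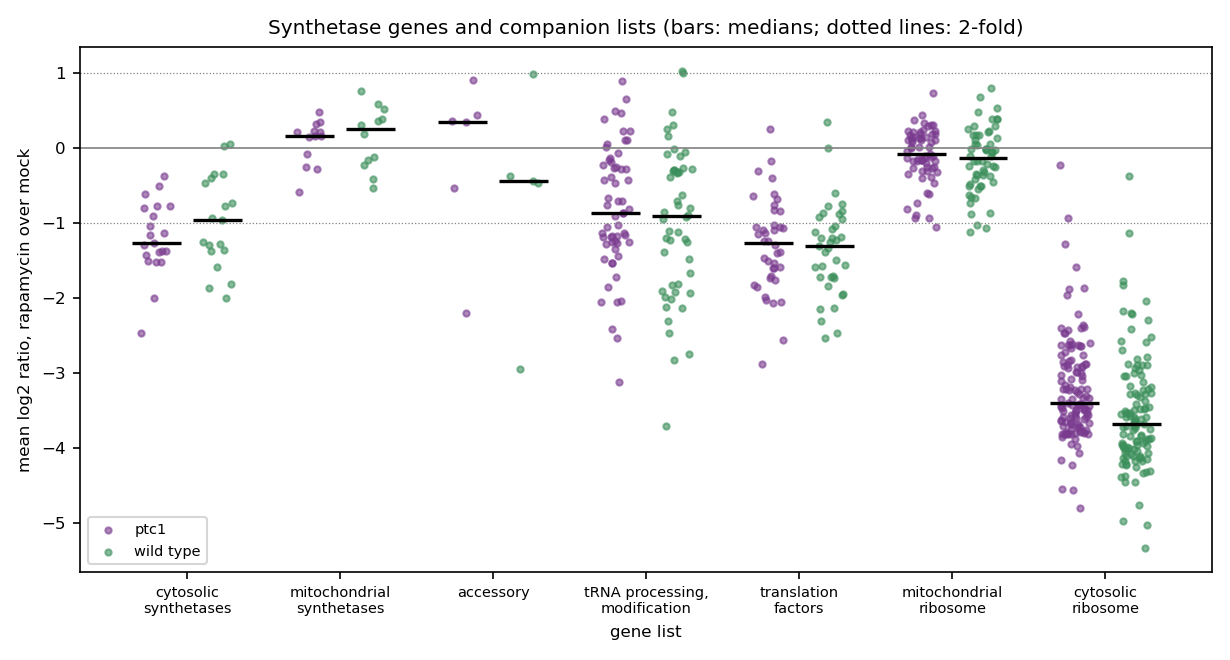
Mean log2 ratio (rapamycin over mock, vertical axis) of each gene in the synthetase sets and the companion lists (horizontal axis) in ptc1 (purple) and the wild type (green), with medians as black bars and 2-fold as dotted lines. Cytosolic synthetases have medians of −1.27 in ptc1 and −0.97 in the wild type, translation factors −1.27 in ptc1 and −1.31 in the wild type, and the tRNA list −0.86 in ptc1 and −0.91 in the wild type, while mitochondrial synthetases (0.16 in ptc1, 0.25 in the wild type) and mitochondrial ribosomal proteins (−0.08 in ptc1, −0.14 in the wild type) lie around 0.

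Of cytosolic translation factors 30 of 40 fell in ptc1 and 27 of 37 in the wild type, with medians of −1.27 in ptc1 and −1.31 in the wild type. Of mitochondrial ribosomal proteins 1 of 65 fell in ptc1 and 3 of 58 in the wild type, where 12.4% of all genes fell in ptc1 and 15.0% in the wild type, with medians of −0.08 in ptc1 and −0.14 in the wild type. Cytosolic ribosomal proteins had medians of −3.40 in ptc1 and −3.68 in the wild type, deeper than any single synthetase gene. In ptc1 the cytosolic synthetase median was the same to 2 decimals as that of the translation factors, and in the wild type it lay closer to that of the tRNA list. These distances were not tested. Between strains the median difference, ptc1 minus wild type, was −0.19 for cytosolic synthetases, 0.10 for translation factors, 0.14 for the tRNA list and 0.35 for cytosolic ribosomal proteins, against −0.0035 for all genes. Over the pairings of single arrays it ran from −0.49 to 0.09 for cytosolic synthetases and from −0.0035 to 0.30 for translation factors. For the tRNA list it ran from −0.03 to 0.35, and for cytosolic ribosomal proteins from 0.19 to 0.52. Of these sets, the cytosolic ribosomal proteins alone kept their sign.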

How the data were processed

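RNA from the 4 samples was compared on spotted 2-colour arrays. Per the labels' protocols, cDNA from 8 µg of total RNA was labelled indirectly, spots with a diameter under 120 µm or intensities under 150 units were left out, and the authors normalised by the ratio of medians. The table deposited by the authors holds, per array, a log ratio for every open reading frame, which was read as log2. The scanner software, the background correction and the handling of repeated spots are not stated in the sources used here. Titles and dye fields of the ptc1 arrays name opposite dyes, and each strain mean holds both orientations.

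The 6212 rows were named through RefSeq's R64 table (5662 by locus tag, 52 by a unique synonym), and rows of a gene were averaged, leaving 6176 genes. Means, SDs and counts past the 2-fold rule were computed with Python 3.11.15 and pandas 2.3.3. The rule was also run on simulated data in which all genes of a strain had the same noise SD. Its calls were checked only for genes set to no change or to changes well past the limit. That check therefore does not cover genes near the limit or genes with a wide spread. Alternatives were centred arrays, centred arrays of equal spread, 1.5-fold and 3-fold rules, no sign condition, genes on all 4 arrays, each array left out, and counts over the cytosolic genes measured in both strains, the last chosen after seeing the data. The members and lists were chosen with earlier results of these data known. All members were open to naming, with all accessory genes and up to 4 genes of each other list with the largest wild-type means; THG1 was named after its value was seen. Promoters and proteins were not analysed here.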

Additional observations from a re-analysis of the deposited data

Results flagged for a closer look

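For 4 genes both ptc1 arrays had one sign and both wild-type arrays the other, and these differences were not tested. The share of all genes with such opposite signs is not given here. Strains failed to overlap, whatever the sign, for 34.7% of all genes. DPS1 was negative in ptc1 and slightly positive in the wild type, a difference of −0.56. NAM2 was positive in ptc1 and negative in the wild type, a difference of 0.43. Among the genes beside the synthetases, HER2 (0.80) and PET112 (0.80), for subunits of the same mitochondrial amidotransferase, were positive in ptc1 and negative in the wild type. All 4 differences were under the 2-fold limit. GTF1, for the remaining subunit, was negative in both strains, and its strains did not overlap either (0.75, higher in ptc1).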

How the results depend on the processing

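Counts near the limit depended on the fold asked for, through the construction of the rule. With a 3-fold rule 2 cytosolic synthetase genes fell in ptc1 and 4 in the wild type, and 5 amino acid pairs differed in ptc1 and 3 in the wild type. The same rule, passed downward by 7.07% of all genes in ptc1 and 9.07% in the wild type, left 8 of 59 tRNA genes in ptc1 and 15 of 50 in the wild type, 13 of 40 translation factors in ptc1 and 12 of 37 in the wild type, and 0 of 65 mitochondrial ribosomal genes in ptc1 and 0 of 58 in the wild type. With a 1.5-fold rule 1 of 13 mitochondrial synthetase genes passed in ptc1 and 2 of 12 in the wild type. At this rule 20.3% of all genes fell and 22.2% rose in ptc1, and 23.7% fell and 26.4% rose in the wild type. Of mitochondrial ribosomal genes 8 of 65 fell in ptc1 and 9 of 58 in the wild type, fewer than those shares. Between strains 1 synthetase gene, YHR020W, differed by 1.5-fold, and no share of all genes is given for that. Centring moved the wild-type medians to −1.04 for cytosolic and 0.18 for mitochondrial synthetases, and arrays of equal spread gave 0.17 for mitochondrial synthetases and a ptc1 pair median of −1.40. Equal spread also gave 3 fallen mitochondrial ribosomal genes in ptc1. Over genes on all 4 arrays the mitochondrial wild-type median was 0.19 and the ptc1 pair median −1.44.

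With an array left out, 10 to 15 cytosolic genes fell in ptc1 and 9 to 11 in the wild type, 0 to 1 mitochondrial synthetase genes passed in ptc1, and 1 to 3 mitochondrial ribosomal genes fell in ptc1. The cytosolic median ran from −1.39 to −0.97 in ptc1 and from −1.07 to −0.99 in the wild type, and the mitochondrial median from −0.15 to 0.28 in ptc1, where its sign turned, and from 0.17 to 0.21 in the wild type. The pair median ran from −1.35 to −1.30 in ptc1 and from −0.93 to −0.83 in the wild type. The strains failed to overlap in 13 to 26 synthetase genes, as fewer arrays must overlap. No share of all genes is given for arrays left out or for equal spread. Counts under these settings are therefore not read as results about the members. No named gene past the 2-fold rule changed the sign of its mean under centring or equal spread. That outcome was fixed in advance, as the largest shift was 0.12, for wild-type array 1, and scaling keeps signs. No paired analysis was possible because the array numbers follow only the order of deposit, and titles and dye fields disagree on which ptc1 array has the dyes of which wild-type array. The number of arrays and the lack of replicate cultures limit every value.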
